A study of Mus musculus with 16 samples.

Results

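The genes described here are 10 members of the Notch pathway, chosen by name from the deposited count table: *Hey1*, *Hey2*, *Heyl*, *Hes1*, *Nrarp*, *Dll4*, *Jag1*, *Jag2*, *Notch1* and *Notch4*. They are 10 of 55414 genes in the table, and all 10 were among the 15693 genes with enough counts to be tested. RNA was sequenced from mouse lung endothelial cells (MLECs) of 4 independent isolations, taken from mice of the genotype Rosa26-CreERT2;Eng fl/fl that also carried the Immorto transgene. The cells were selected with CD31- and then ICAM2-coated beads and grown with interferon-γ and the TGF-β receptor inhibitor SB431542, both of which were left out before the assay. Each isolation gave vehicle-treated cells (Ctrl) and cells in which *Eng* was deleted by 4-OH-tamoxifen (KO). After overnight serum starvation, cells received PBS or BMP9 at 0.2 ng/ml of its growth factor domain for 90 min. The form of the ligand differed by genotype, with sENG(M):BMP9, which holds a soluble ENG monomer, for Ctrl cells and the prodomain-bound form, pro:BMP9, for KO cells. Soluble ENG was in large excess in sENG(M):BMP9, so ligand-treated Ctrl cells also received free soluble ENG, unlike the other groups. With ligand, genotype therefore cannot be told apart from the form of the ligand or the excess of soluble ENG. In Ctrl cells, BMP9 cannot be told apart from soluble ENG, nor in any comparison loss of *Eng* from exposure to 4-OH-tamoxifen. All 16 libraries share the Immorto transgene and the floxed *Eng* alleles. Each of the 4 groups, named by genotype and treatment, holds 4 libraries, 1 from each isolation.

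Notch receptors are held at the cell surface and are activated by Delta-like and Jagged ligands on a neighbouring cell, after which the receptor's intracellular part is cut free by γ-secretase and joins the DNA-binding protein RBPJ in the nucleus. Genes of the HES and HEY families, which encode transcriptional repressors, are the classic targets of that complex. In endothelium, DLL4 and NOTCH1 restrain sprouting and accompany arterial differentiation, and several HEY and HES genes are also known to respond to BMP9 through the receptor ALK1 and the SMAD proteins it phosphorylates.

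Library totals lay between 14869115 and 17242117 counts. *Eng*, the targeted gene, was present in KO PBS cells at 9.27%, 8.51%, 14.5% and 13.7% of its normalised read count in Ctrl PBS cells of isolations 1 to 4. It was 2.35-fold higher with pro:BMP9 than with PBS in KO cells, where it reached between 16.7% and 23.3% of the level in Ctrl sENG(M):BMP9 cells. A summed level of 10 endothelial markers lay between 3448 and 7571 CPM (read counts scaled to the library size by TMM) in the 16 libraries, and 4 lymphatic markers, led by *Lyve1*, summed to between 3554 and 7137 CPM. The summed level of 6 fibroblast markers ranged from 68.5 to 636 CPM and that of 10 mural markers from 89.8 to 312 CPM. That of 5 epithelial markers, led by *Krt18*, ranged from 49.3 to 179 CPM. That of 4 leukocyte markers, led by *Cd68*, ranged from 29.3 to 42.9 CPM. Within these last lists, the epithelial markers *Epcam* and *Sftpc* and the leukocyte markers *Ptprc* and *Adgre1* reached at most 6 counts in any library. In such bulk samples, fewer cells of a type and less RNA per cell cannot be told apart.

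The levels of the 10 genes can be compared with each other only per length, as CPM per kilobase of the gene length in the deposited table. In Ctrl PBS cells the order was *Jag1* (61.9 ± 8.05 CPM per kb, SD, n = 4), *Notch4* (44.5 ± 11.7), *Nrarp* (37.8 ± 14.6), *Notch1* (21.0 ± 3.14), *Hes1* (14.9 ± 1.09), *Dll4* (8.05 ± 6.13), *Jag2* (4.12 ± 2.62), *Hey1* (0.725 ± 0.482), *Hey2* (0.178 ± 0.0264) and *Heyl* (0.165 ± 0.154). The libraries of neighbours in this order overlapped, except between *Notch1* and *Hes1*, between *Jag2* and *Hey1*, and between *Hey1* and *Hey2*. The HEY genes were thus the least abundant members without ligand, below every ligand and receptor gene of the set. With sENG(M):BMP9, *Hes1* stood at 28.8 ± 6.17 CPM per kb, next to *Notch1* at 25.8 ± 3.25, and *Hey1* at 8.51 ± 5.40, next to *Dll4* at 5.19 ± 4.38, and in both of these pairs the libraries overlapped. *Hey2* and *Heyl* remained last in all 4 groups.

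**Figure D1:**
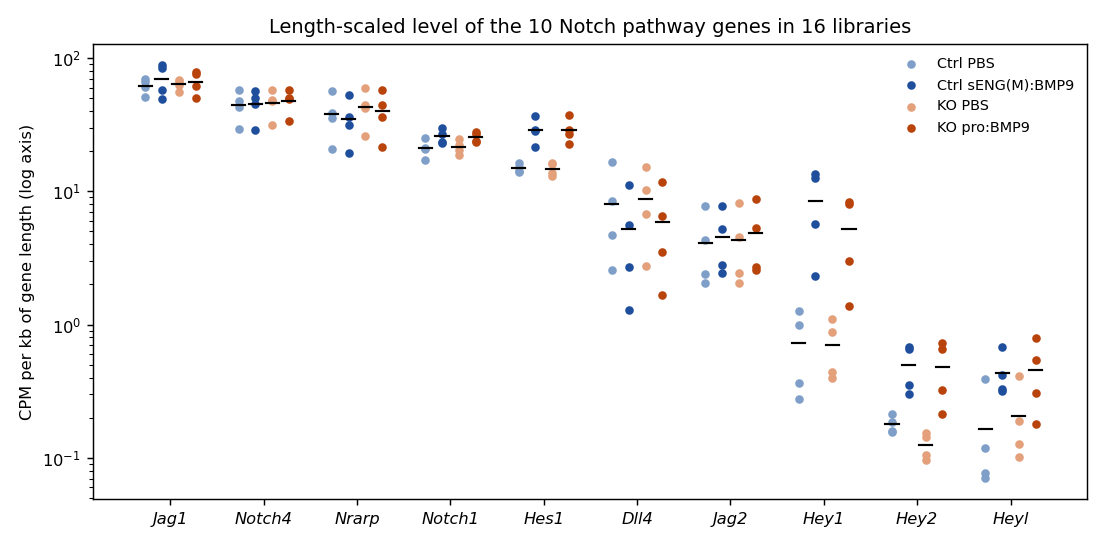
Each point is 1 library, placed by its TMM-scaled CPM per kilobase of gene length on a log axis, with a bar at the mean of the 4 libraries of each group. *Jag1* lies highest, at a mean of 61.9 CPM per kb in Ctrl PBS cells, while *Hey1*, *Hey2*, *Heyl* and *Hes1* shift upwards in the ligand-treated groups.

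Treatment with sENG(M):BMP9 raised *Hey1*, *Hey2*, *Heyl*, *Hes1* and *Notch1* in Ctrl cells and lowered *Dll4*, so 6 of the 10 genes passed the threshold of an adjusted p under 0.05, against 9.69% of all genes tested (5.86% higher and 3.83% lower). With pro:BMP9 in KO cells, *Hey1*, *Hey2*, *Hes1* and *Notch1* rose and *Dll4* fell, which makes 5 of 10 genes, against 5.59% of all genes tested (3.68% higher and 1.92% lower). In both genotypes *Hey1*, *Hey2* and *Hes1* were higher in every ligand library than in any PBS library, as 2.51% of all genes were in Ctrl and 1.83% in KO cells. The increases ranged from 1.19-fold for *Notch1* in KO cells to 11.7-fold for *Hey1* in Ctrl cells. *Nrarp*, *Jag1*, *Jag2* and *Notch4* did not pass the threshold in either genotype. With quantile normalisation, ComBat and DESeq2, *Jag2* passed it as higher in Ctrl and KO cells (DESeq2 adjusted p = 0.0316 and 0.0220) and *Nrarp* as lower in KO cells (0.0196), and *Jag1* passed it in Ctrl cells with no filter on low counts (edgeR adjusted p = 0.00285). The median log2 fold change over the 10 members was 0.24 in Ctrl and 0.22 in KO cells, where the median over all genes was -0.01 and 0.00. Without ligand, no member passed the threshold between KO and Ctrl cells. With ligand, *Hey1* was lower in KO than in Ctrl cells.

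**Figure D2:**
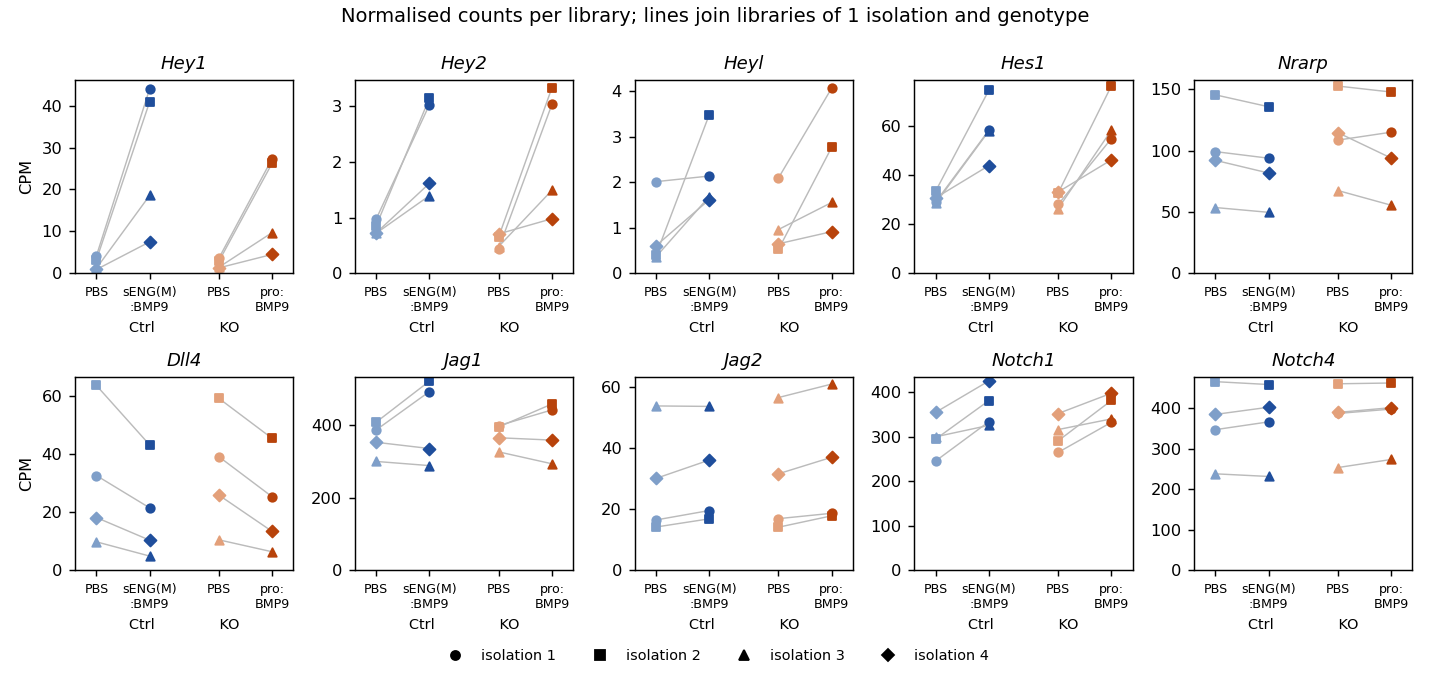
Normalised read counts (CPM) of each gene in all 16 libraries, with symbols for the 4 isolations and a line joining the PBS and ligand libraries of 1 isolation and genotype. In *Hey1*, *Hey2* and *Hes1* every ligand-treated library lies above every PBS library of its genotype, and in *Dll4* every line falls.

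*Hey1* (ENSMUSG00000040289, GRCm39 chromosome 3, 8728419 to 8732316, minus strand, 5 exons) encodes a HEY repressor. In Ctrl PBS cells it was counted 64, 49, 20 and 15 times in isolations 1 to 4, and in Ctrl sENG(M):BMP9 cells 742, 612, 320 and 130 times, or 44.0, 40.9, 18.6 and 7.50 CPM. In KO PBS cells the counts were 57, 44, 24 and 22, and in KO pro:BMP9 cells 397, 418, 150 and 69, or 27.4, 26.3, 9.72 and 4.51 CPM. Every ligand-treated library lay above every PBS library of its genotype, and isolations 1 and 2 were higher than isolations 3 and 4 in all 4 groups. Among ligand-treated Ctrl libraries the highest value was 5.87 times the lowest. The increase was 11.7-fold in Ctrl cells (95% confidence interval 9.50 to 14.4, edgeR quasi-likelihood test, Benjamini-Hochberg adjusted p = 3.65e-12) and 7.05-fold in KO cells (5.68 to 8.76, adjusted p = 3.38e-10). By p-value *Hey1* ranked 10th of 15693 genes in Ctrl and 12th in KO cells. As a yardstick, *Smad6*, an inhibitory SMAD induced by BMP signalling, was 10.96-fold higher in Ctrl and 9.25-fold higher in KO cells, and *Id1*, another direct BMP target, 5.69- and 5.87-fold.

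*Hey2* (ENSMUSG00000019789, chromosome 10, 30708355 to 30718797, minus strand, 5 exons) encodes a second HEY repressor. It is shown because it was the 1 of 7 members with a promoter window in the RefSeq table (GRCm38.p6) to hold the core letters of an RBPJ site. *Hey1*, *Heyl* and *Hes1* have no window in that table. The sequence is printed 5′ to 3′ on the strand of the gene, from 250 bases before to 20 bases after the RefSeq start, in the coordinates of GRCm39 to which it was matched exactly (chr10:30718760-30719029). Capitals mark TGGGAA or its reverse complement TTCCCA.

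Hey2 promoter: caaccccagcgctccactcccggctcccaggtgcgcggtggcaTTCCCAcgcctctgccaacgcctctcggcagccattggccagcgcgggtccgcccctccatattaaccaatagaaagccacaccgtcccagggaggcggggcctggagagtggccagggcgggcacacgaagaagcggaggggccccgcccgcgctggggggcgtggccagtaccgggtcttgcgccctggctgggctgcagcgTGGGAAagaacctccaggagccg

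One match spans positions -207 to -202 on the reverse strand and the other -3 to 3, counted from the start without a position 0, and both are part of the longer string CGTGGGAA. Searched on both strands, TGGGAA was found in 25.6% of 32851 RefSeq promoter windows of 250 bases before to 50 after a start, and CGTGGGAA in 0.734%. Beyond the stretch printed, the window of 50 bases after the start also held GGCGCC, a GC-rich box bound by SMAD proteins, at positions 40 to 45, as did 11.9% of all windows.

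*Hey2* was sparse. It was counted 15, 13, 12 and 12 times in Ctrl PBS cells and 51, 47, 24 and 28 times in Ctrl sENG(M):BMP9 cells. In KO cells the counts were 7, 10, 8 and 12 with PBS and 44, 53, 23 and 15 with pro:BMP9. The PBS and ligand libraries did not overlap in either genotype, as for *Hey1*, although in KO cells of isolation 4 the values were 0.707 CPM with PBS and 0.980 CPM with pro:BMP9. The increase was 2.71-fold in Ctrl cells (1.81 to 4.07, edgeR adjusted p = 0.0015) and 3.64-fold in KO cells (2.35 to 5.65, edgeR adjusted p = 0.000458).

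*Heyl* (ENSMUSG00000032744, chromosome 4, 123127349 to 123143668, plus strand, 5 exons), the remaining HEY gene, was counted 31, 6, 6 and 10 times in Ctrl PBS cells and 36, 52, 29 and 28 times in Ctrl sENG(M):BMP9 cells. In KO cells the counts were 33, 8, 16 and 11 with PBS and 59, 44, 24 and 14 with pro:BMP9. Its PBS libraries of isolation 1 were as high as ligand-treated libraries of other isolations, so that the groups overlapped in both genotypes. The ligand library was higher in 4 of 4 isolations of each genotype, as for 13.1% of all genes in Ctrl and 12.4% in KO cells. *Heyl* rose 2.83-fold in Ctrl cells (1.61 to 4.98, edgeR adjusted p = 0.0161), and the log2 fold change in KO cells was 1.11 (0.32 to 1.89, edgeR adjusted p = 0.112). That response passed the threshold under 3 of 10 other settings, among them no filter on low counts. Leaving out isolation 1 moved the fold change in Ctrl cells to 2.23 on the log2 scale, and leaving out isolation 2 or 3 moved it to 1.03 or 1.35 on that scale, where it no longer passed the threshold (edgeR adjusted p = 0.141 and 0.0999). The log2 difference between the responses in KO and Ctrl cells was -0.39, with a confidence interval of -1.54 to 0.75, so the missed threshold in KO cells does not show a different response.

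*Hes1* (ENSMUSG00000022528, chromosome 16, 29883202 to 29886614, plus strand, 4 exons) encodes a HES repressor and was the most abundant target gene without ligand per length after *Nrarp*. It stood at 29.0, 33.5, 28.5 and 30.7 CPM in Ctrl PBS cells and at 58.3, 74.6, 58.0 and 43.9 CPM with sENG(M):BMP9. In KO cells it stood at 28.0, 32.7, 26.4 and 33.1 CPM with PBS and at 54.9, 76.3, 58.3 and 46.2 CPM with pro:BMP9. The groups did not overlap in either genotype, and isolation 4 gave the smallest increase in both. *Hes1* rose 1.91-fold in Ctrl (1.65 to 2.21, edgeR adjusted p = 2.55e-06) and 1.94-fold in KO cells (1.67 to 2.24, edgeR adjusted p = 3.47e-06). In isolations 1 to 3 the 2 genotypes gave log2 increases between 0.97 and 1.22, and in isolation 4 they gave 0.51 and 0.48.

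*Nrarp* (ENSMUSG00000078202, chromosome 2, 25070770 to 25073351, plus strand, 1 exon) encodes an ankyrin-repeat protein that is itself induced by Notch and limits signalling by the receptor's intracellular domain. Its window is shown because it lacks the RBPJ core letters and instead repeats the string CAGAC, known as a SMAD4-binding box (chr2:25070520-25070789, plus strand, capitals mark CAGAC).

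Nrarp promoter: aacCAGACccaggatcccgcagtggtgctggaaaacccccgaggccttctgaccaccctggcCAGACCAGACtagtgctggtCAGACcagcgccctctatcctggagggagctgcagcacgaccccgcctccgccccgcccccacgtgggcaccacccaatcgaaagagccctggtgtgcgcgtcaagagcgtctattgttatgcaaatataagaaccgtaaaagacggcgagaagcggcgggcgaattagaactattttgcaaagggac

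CAGAC was found here 4 times. On either strand it was present in 49.6% of all windows and in 4 of the 7 member windows, so a single match is common. Those 4 are the windows of *Dll4*, *Jag1*, *Notch4* and *Nrarp*. The share of windows with several matches was not counted. The window also held the E-box CACGTG at positions -108 to -103, as 7.15% of windows did. Unlike the HEY genes and *Hes1*, *Nrarp* did not rise with ligand. It stood at 99.1, 145, 53.6 and 92.0 CPM in Ctrl PBS cells and at 93.8, 136, 49.7 and 81.7 CPM with sENG(M):BMP9. In KO cells it stood at 109, 153, 67.4 and 115 CPM with PBS and at 115, 148, 55.5 and 93.9 CPM with pro:BMP9. The groups overlapped in full, and isolation 3 was lowest and isolation 2 highest throughout. The log2 fold change was -0.12 in Ctrl (-0.23 to 0.00, edgeR adjusted p = 0.263) and -0.13 in KO cells (-0.25 to -0.01, edgeR adjusted p = 0.263), with 4 of 4 and 3 of 4 isolations lower. The upper bounds of these intervals correspond to 1.00-fold in Ctrl and 0.99-fold in KO cells.

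*Dll4* (ENSMUSG00000027314, chromosome 2, 119156265 to 119166443, plus strand, 11 exons) encodes the Delta-like ligand through which endothelial cells restrain the sprouting of their neighbours. It was the 1 member that fell with ligand. Its promoter is shown beside those of *Hey2* and *Nrarp* because the 3 genes responded in different ways (chr2:119156015-119156284, plus strand, capitals mark CAGAC or its reverse complement GTCTG).

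Dll4 promoter: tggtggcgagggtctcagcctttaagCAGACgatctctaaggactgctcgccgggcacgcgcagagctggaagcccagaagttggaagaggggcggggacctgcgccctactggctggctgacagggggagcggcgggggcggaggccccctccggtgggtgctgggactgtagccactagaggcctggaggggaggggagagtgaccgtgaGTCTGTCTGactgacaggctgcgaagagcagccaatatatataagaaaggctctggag

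The *Dll4* window held CAGAC 3 times, at positions -224 to -220 and, on the reverse strand, at -38 to -34 and -34 to -30, where the matches share 1 base. Neither TGGGAA nor GGCGCC was found in it. Whether the strings in these windows bear on the responses of the genes was not tested. *Dll4* stood at 32.6, 63.5, 9.83 and 18.2 CPM in Ctrl PBS cells and at 21.5, 43.1, 4.94 and 10.4 CPM with sENG(M):BMP9. In KO cells it stood at 39.0, 59.1, 10.5 and 25.9 CPM with PBS and at 25.3, 45.3, 6.42 and 13.4 CPM with pro:BMP9. Because the isolations differed by up to 8.73-fold within a group, the groups overlapped, yet within every isolation and genotype the ligand library was the lower, at between 0.502 and 0.678 times the PBS library in Ctrl cells and between 0.518 and 0.767 times in KO cells. *Dll4* fell by 37.7% in Ctrl (log2 fold change -0.68, SE 0.101, edgeR adjusted p = 0.000103) and by 36.1% in KO cells (-0.65, SE 0.0996, edgeR adjusted p = 0.000267). Lower in 4 of 4 isolations were 13.5% of all genes in Ctrl and 11.3% in KO cells. Without the term for the isolation, this decrease did not pass the threshold in either genotype (edgeR adjusted p = 0.9999 and 1).

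*Jag1* (ENSMUSG00000027276, chromosome 2, 136923376 to 136958564, minus strand, 26 exons) and *Jag2* (ENSMUSG00000002799, chromosome 12, 112871439 to 112893396, minus strand, 26 exons) encode the Jagged ligands. *Jag1* stood at 385, 407, 299 and 352 CPM in Ctrl PBS cells and at 491, 519, 288 and 334 CPM with sENG(M):BMP9, so it was higher with ligand in isolations 1 and 2 and lower in isolations 3 and 4. The KO cells showed the same split, at 397, 394, 325 and 364 CPM with PBS and 440, 457, 293 and 358 CPM with pro:BMP9. Its log2 fold change was 0.15 in Ctrl (0.00 to 0.30, edgeR adjusted p = 0.255) and 0.04 in KO cells (-0.11 to 0.19, edgeR adjusted p = 0.912). *Jag2* ranged from 14.2 to 61.1 CPM over all libraries and was highest in isolation 3 of every group. Its log2 fold change was 0.17 in Ctrl (0.05 to 0.30, edgeR adjusted p = 0.0896, higher in 3 of 4 isolations, and 0.0342 without isolation 3) and 0.19 in KO cells (0.07 to 0.32, edgeR adjusted p = 0.0798, higher in 4 of 4).

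*Notch1* (ENSMUSG00000026923, chromosome 2, 26347915 to 26406675, minus strand, 34 exons) encodes a Notch receptor expressed widely in endothelium, and *Notch4* (ENSMUSG00000015468, chromosome 17, 34783242 to 34807477, plus strand, 30 exons) a receptor that is largely endothelial. *Notch1* stood at 246, 295, 300 and 355 CPM in Ctrl PBS cells and at 334, 381, 326 and 425 CPM with sENG(M):BMP9. In KO cells it stood at 265, 291, 316 and 352 CPM with PBS and at 333, 382, 340 and 398 CPM with pro:BMP9. The groups overlapped, and the ligand library was higher in 4 of 4 isolations of both genotypes, as for 13.1% of all genes in Ctrl and 12.4% in KO cells. *Notch1* rose by 23.0% in Ctrl (log2 fold change 0.30, SE 0.0510, edgeR adjusted p = 0.000453) and by 18.9% in KO cells (0.25, SE 0.0511, edgeR adjusted p = 0.00397). The increase in KO cells did not pass the threshold without isolation 2 (edgeR adjusted p = 0.0880). *Notch4* stood at between 231 and 465 CPM in all 16 libraries. The ligand changed it by 0.02 on the log2 scale in Ctrl (-0.06 to 0.11, edgeR adjusted p = 0.873) and by 0.05 in KO cells (-0.03 to 0.13, edgeR adjusted p = 0.712).

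**Figure D3:**
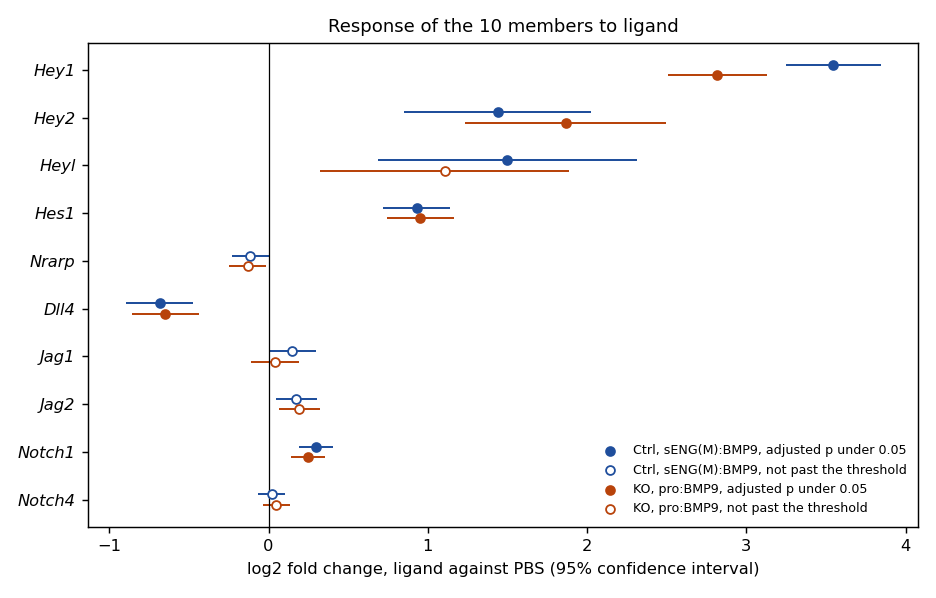
Log2 fold change of each gene between ligand and PBS, with 95% confidence intervals from the edgeR model, for Ctrl cells with sENG(M):BMP9 (blue) and KO cells with pro:BMP9 (orange), where filled points passed the threshold. *Hey1* lies at 3.55 and 2.82, *Dll4* at -0.68 and -0.65, and the points of *Notch4* at 0.02 and 0.05.

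The members also differed in how much of their variation came from the isolation. On the log2 scale, the isolation accounted for 97.6% of the variation of *Jag2*, 96.6% of that of *Notch4*, 92.9% of that of *Nrarp*, 87.5% of that of *Dll4* and 79.9% of that of *Jag1*, and ligand treatment for between 0.27% (*Notch4*) and 10.2% (*Dll4*). For *Hes1*, *Hey1* and *Hey2* ligand treatment accounted for 83.9%, 71.7% and 70.1%. *Notch1* and *Heyl* lay between these sets, with 44.2% each. Genotype accounted for at most 3.97% of the variation of any member, that of *Nrarp*. After centring within isolations, the 16 libraries gave a Pearson's r of 0.97 between *Hes1* and *Hey1*, 0.92 between *Hey1* and *Hey2*, 0.88 between *Hes1* and *Notch1* and -0.89 between *Dll4* and *Hey1*. These values describe libraries that share the treatment and the isolations.

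Between KO and Ctrl cells in PBS, 0 of the 10 members passed the threshold of the edgeR test, against 0.0191% of all genes, and 1 member (*Nrarp*) had an unadjusted p under 0.05, against 6.82% of all genes. DESeq2 with the isolation as a term also called none. The fold change of *Hey1* was 0.998 (0.751 to 1.32), with 2 of 4 isolations in each direction. *Hey2* was lower in KO cells of 4 of 4 isolations, as were 7.87% of all genes, at 45.6%, 76.6%, 66.8% and 97.6% of Ctrl, and its PBS groups did not overlap, which held for 0.612% of all genes in this direction. Its log2 fold change of -0.50 had an interval of -1.23 to 0.24 (edgeR adjusted p = 0.839) at 7 to 15 counts per library. *Nrarp* was higher in KO cells of 4 of 4 isolations, as were 7.32% of all genes, with a log2 fold change of 0.21 (0.09 to 0.33, edgeR adjusted p = 0.393), and it passed the threshold with no filter on low counts and with quantile normalisation, ComBat and DESeq2.

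Between the ligand-treated groups, 1 of 10 members, *Hey1*, passed the threshold, against 0.255% of all genes, and 4 of 10 (*Hey1*, *Nrarp*, *Dll4* and *Notch4*) had an unadjusted p under 0.05, against 9.26%. *Hey1* in KO pro:BMP9 cells was at 62.1%, 64.2%, 52.3% and 60.1% of its level in Ctrl sENG(M):BMP9 cells of isolations 1 to 4. It was lower in 4 of 4 isolations, as were 7.35% of all genes, and the groups overlapped because the isolations differ. The log2 fold change was -0.73 (SE 0.107, interval -0.96 to -0.51, edgeR adjusted p = 0.00836). The value was -0.75 without isolation 1 and -0.67 without isolation 3, and neither passed the threshold (edgeR adjusted p = 0.0931 and 0.0588). *Hey2*, *Heyl* and *Hes1* did not pass it, at log2 fold changes of -0.07 (-0.58 to 0.43), -0.03 (-0.72 to 0.66) and 0.01 (-0.19 to 0.21). Of the yardstick genes, *Smad6* was at -0.24 (-0.35 to -0.13, edgeR adjusted p = 0.0587) and *Id1* at 0.02 (-0.22 to 0.26). *Hey2* was at 100%, 106%, 107% and 60.6% of Ctrl, so that only isolation 4 was lower. *Nrarp* was again higher in KO cells of 4 of 4 isolations (0.20, 0.08 to 0.31, edgeR adjusted p = 0.143), as was *Dll4* (0.22, 0.00 to 0.44, edgeR adjusted p = 0.538), where 7.9% of all genes were. All 5 fibroblast markers tested had negative log2 fold changes in KO cells, both with PBS and with ligand, and 1 of them (*Dcn*) passed the threshold in each. The summed fibroblast level ranged from 77.1 to 631 CPM in Ctrl and from 68.5 to 541 CPM in KO libraries with ligand, while *Tcf21* had 0 or 1 counts in every library. Of the 10 mural markers, 7 had negative log2 fold changes and *Pdgfrb* passed the threshold with ligand, where the summed level ranged from 92.5 to 312 CPM in Ctrl and from 89.8 to 194 CPM in KO libraries. Of the 10 endothelial markers, 9 had positive log2 fold changes in KO cells with PBS and 8 with ligand, and 0 passed the threshold in either. In the edgeR test, 6 of them had an unadjusted p under 0.05 with PBS and 2 with ligand, where 6.82% and 9.26% of all genes did. Of the 4 lymphatic markers, 2 had positive log2 fold changes in KO cells with PBS and 3 with ligand, and 0 passed the threshold. In the same edgeR test, 3 of these 4 had an unadjusted p under 0.05 with PBS and 3 with ligand. The part of cell composition in the lower *Hey1* or the higher *Nrarp* and *Dll4* of KO cells was not tested.

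**Figure D4:**
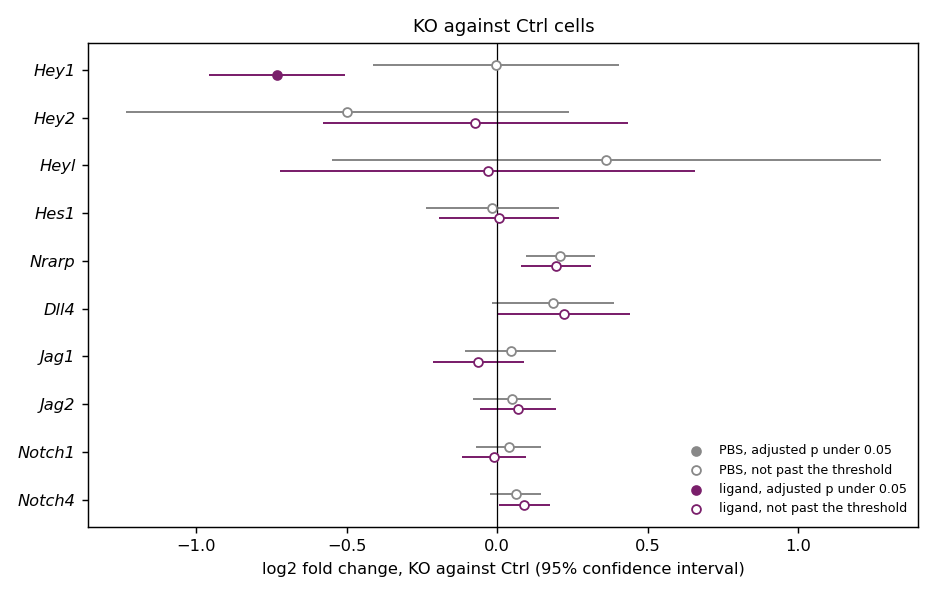
Log2 fold change of each gene between KO and Ctrl cells, with 95% confidence intervals from the edgeR model, in PBS (grey) and with ligand (purple), where filled points passed the threshold. Only *Hey1* with ligand, at -0.73, is filled.

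The difference between the ligand responses of KO and Ctrl cells was tested directly. Of all genes, 0 passed the threshold of the edgeR test and 3.6% had an unadjusted p under 0.05. Among the 10 members, 0 passed, and *Hey1* alone had an unadjusted p under 0.05. For *Hey1* the log2 difference was -0.73 (SE 0.226, interval -1.20 to -0.25), at -0.49, -0.48, -1.17 and -1.18 in isolations 1 to 4. The share of all genes with the same sign in every isolation was not counted for this difference. The edgeR adjusted p of *Hey1* was 0.9996, and its adjusted p ranged from 0.136 to 1 over the other settings tried. The interval for *Hes1* was narrower, from -0.28 to 0.32 around 0.02, that for *Dll4* ran from -0.26 to 0.33 around 0.04, and that for *Notch1* from -0.20 to 0.10 around -0.05. For *Hey2* it ran from -0.47 to 1.32, which leaves room for a difference of either sign. Among the yardstick genes, the log2 difference was -0.24 for *Smad6* (-0.42 to -0.07) and 0.05 for *Id1* (-0.33 to 0.43).

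Beyond the 10 members, a list of 65 other Notch pathway genes was described in the same way, of which 58 had enough counts to be tested. The *Hes5* and *Helt* genes had no counts in any library, which at the depth sequenced allows up to 3 counts per library. In Ctrl cells 10 of the 58 rose and 4 fell with sENG(M):BMP9, where 5.86% of all genes rose and 3.83% fell. In KO cells 7 rose and 2 fell with pro:BMP9, where 3.68% of all genes rose and 1.92% fell. The median log2 fold change of the 58 was 0.02 in both genotypes. All 9 genes that passed the threshold in KO cells were among the 14 that passed it in Ctrl cells. The 2 comparisons share no library, but they share the isolations. Between KO and Ctrl cells none passed the edgeR test in PBS or with ligand, and 1 and 6 had an unadjusted p under 0.05, where 6.82% and 9.26% of all genes did.

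Of the HES genes and their relatives outside the 10 members, 4 had enough counts to be tested. Of these, 3 (*Hes7*, *Bhlhe40* and *Bhlhe41*) rose in both genotypes, where 5.86% of all genes rose in Ctrl and 3.68% in KO cells. The remaining gene, *Hes6*, did not pass the threshold, at log2 fold changes of -0.10 and -0.24. *Hes7*, best known as an oscillating repressor of the segmentation clock, was counted 16, 27, 18 and 8 times in Ctrl PBS cells and 151, 205, 87 and 46 times with sENG(M):BMP9. In KO cells the counts were 22, 33, 19 and 15 with PBS and 139, 132, 47 and 40 with pro:BMP9. Its libraries did not overlap in either genotype, and its log2 fold change was 2.73 in Ctrl (SE 0.229) and 2.03 in KO cells (SE 0.226). The related repressors *Bhlhe40* and *Bhlhe41* rose as well, with log2 fold changes of 0.77 and 0.47 in Ctrl and 0.85 and 0.44 in KO cells.

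*Lfng*, the Fringe glycosyltransferase that modifies Notch receptors and favours Delta-like over Jagged ligands, was counted 45, 11, 25 and 21 times in Ctrl PBS cells and 119, 111, 84 and 57 times with sENG(M):BMP9. In KO cells it was counted 29, 25, 26 and 26 times with PBS and 65, 93, 79 and 59 times with pro:BMP9. Its log2 fold change was 1.80 in Ctrl (SE 0.253) and 1.56 in KO cells (SE 0.258), and it was the 1 of 5 glycosylation genes to pass the threshold. Of 11 corepressor genes on the list, *Tle3*, *Ctbp2* and *Spen* rose in Ctrl cells, 2 of these (*Tle3* and *Ctbp2*) rose in KO cells, and none fell in either. Over all genes 5.86% rose in Ctrl and 3.68% in KO cells. *Tle3*, a Groucho-type corepressor that HES proteins recruit, had log2 fold changes of 0.46 in Ctrl and 0.33 in KO cells. *Furin*, the protease that matures Notch receptors and also cleaves BMP precursors, rose by 0.44 and 0.30 on the log2 scale.

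A second Delta-like ligand fell together with *Dll4*. *Dll1* stood at 48.8, 70.3, 36.6 and 80.0 CPM in Ctrl PBS cells and at 36.7, 49.6, 19.8 and 49.1 CPM with sENG(M):BMP9. In KO cells it stood at 51.6, 72.0, 37.6 and 87.6 CPM with PBS and at 41.6, 58.8, 24.9 and 58.2 CPM with pro:BMP9, lower with ligand in every isolation. Its log2 fold change was -0.62 in Ctrl (SE 0.0674) and -0.44 in KO cells (SE 0.0666). *Dtx4*, a Deltex ubiquitin ligase, fell by 0.73 and 0.54 on the log2 scale, and *Psen2*, a catalytic subunit of γ-secretase, fell by 0.31 in Ctrl cells, with -0.18 in KO cells (edgeR adjusted p = 0.0603). *Neurl3*, a ubiquitin ligase gene, rose by 0.22 in Ctrl cells. The other 2 genes that passed the threshold in Ctrl cells, named here after their values were seen, were *Mib1* and *Rbpj*, with log2 fold changes of 0.16 and -0.15. *Rbpj* encodes the DNA-binding partner of all Notch receptors, and it was at 0.01 in KO cells (-0.08 to 0.10). Neither of the receptor genes outside the 10 members, *Notch2* and *Notch3*, passed the threshold.

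**Figure D5:**
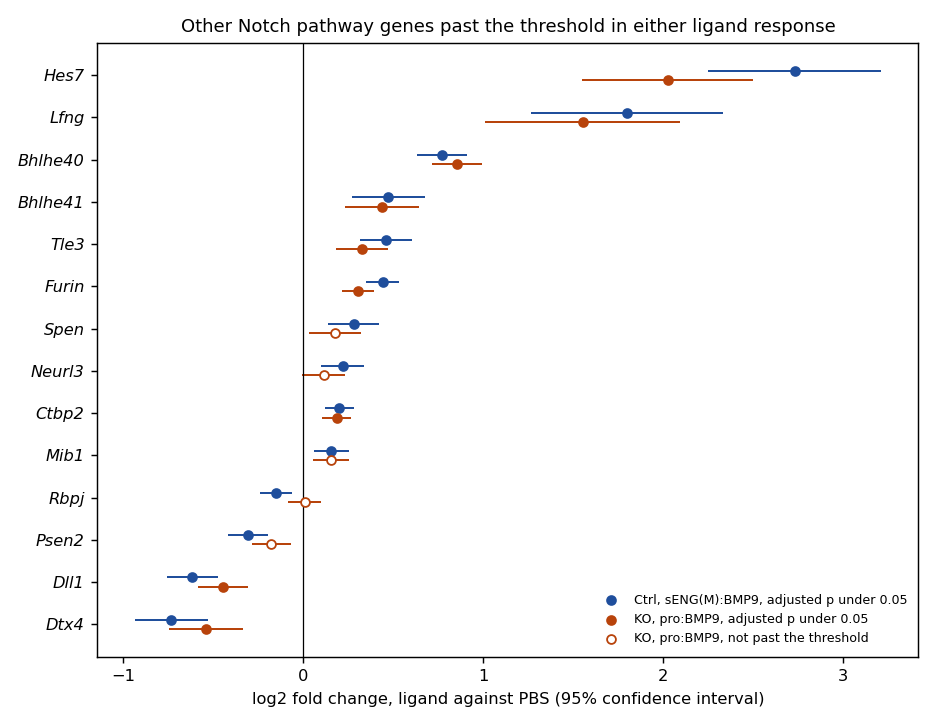
Log2 fold change between ligand and PBS, with 95% confidence intervals from the edgeR model, of the 14 listed pathway genes outside the 10 members that passed the threshold in at least 1 ligand response. *Hes7* lies highest, at 2.73 in Ctrl (blue) and 2.03 in KO cells (orange), and *Dtx4* lowest, at -0.73 and -0.54.

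The genes most like each HEY gene were those with the highest Pearson's r on log2 CPM centred within isolations, over 16 libraries that share treatment and isolation. For *Hey1* they were *Slk*, *Bcor*, *Junb*, *Foxc2* and *Zbtb2*, at r between 0.990 and 0.994, with log2 fold changes between 0.34 (*Slk*) and 3.19 (*Foxc2*) in Ctrl cells. For *Hey2* they were *Top1*, *Mbd4*, *Itgav*, *Kif7* and *Pde4a*, at r between 0.955 and 0.970. For *Heyl* they were *Cyp27b1*, *Hr*, *Fabp7*, *Gch1* and *Mrpl4*, at r between 0.886 and 0.908.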

How the data were processed

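MLEC RNA was prepared as stranded poly(A) libraries, and the authors deposited raw counts of reads per gene, before any normalisation, together with gene lengths. The submitters' processing notes list HISAT2 2.0.5, featureCounts 1.5.0-p3, DESeq2 1.26.0 and GRCm39. The strand setting of the counting is not given in the sources used here, and genes on the opposite strand overlap *Nrarp* (up to 218 counts), *Notch1* (up to 61) and *Dll4* (up to 59). The authors' quantile normalisation, ComBat and DESeq2 steps are not part of the deposited counts.

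Groups came from the labels. Libraries with the same replicate number come from the same isolation, and their deviations from the group means correlated at r between 0.67 and 0.805 in 24 pairs (mean 0.757, against -0.251 for 72 pairs with different numbers). Of the 24 pairs of libraries within the same group, none agreed within sampling noise. Counts were filtered with filterByExpr (minimum count 10, minimum total count 15), scaled by TMM and tested in all 16 libraries at once with edgeR 4.0.16 (quasi-likelihood, isolation as a term, R 4.3.3), with Benjamini-Hochberg adjustment over 15693 genes and a threshold of 0.05. Intervals cover 95%. Log2 values of single isolations used a prior count of 2, and all others none. CPM per kb was CPM divided by the deposited gene length. The procedure was tested on simulated data.

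Comparisons were ligand against PBS in each genotype, KO against Ctrl in each treatment, and the difference of responses. The ligand responses of Ctrl and KO cells share no library with each other, but each shares 1 group with each comparison of KO against Ctrl. Alternatives were no isolation term, RLE size factors, DESeq2 1.42.0, no filter, at least 10 counts in every library, only the libraries compared, quantile normalisation with ComBat (sva 3.50.0) and DESeq2, and leaving out each isolation. The members, the lists and the tests were chosen with earlier results of these data known. Named besides the 10 members are *Eng*, up to 12 pathway genes with the smallest adjusted p among those past the threshold, 5 genes most like each HEY gene, and *Smad6* and *Id1*. Outside this rule, *Mib1*, *Rbpj*, *Hes6*, *Notch2* and *Notch3* and the untested *Hes5* and *Helt* were named after their values were seen. So were the cell type markers *Lyve1*, *Dcn*, *Pdgfrb*, *Tcf21*, *Krt18*, *Epcam*, *Sftpc*, *Cd68*, *Ptprc* and *Adgre1*. Promoter sequences are from the RefSeq table for GRCm38.p6, matched to GRCm39, and 7 of the 10 members had one. 1 pathway gene is not reported here and was left out of the pathway list.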

Additional observations from a re-analysis of the deposited data

Results flagged for a closer look

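In each group of 4 libraries, and for the 4 isolation fold changes of each comparison, the gap of the highest or lowest value to its neighbour was divided by the whole range, and values above Dixon's critical value for 4 are given here. Of 40 groups of CPM values 1 passed, and of 50 sets of fold changes 2 did, where chance alone passes about 5%. *Heyl* in Ctrl PBS cells was 2.01 CPM in isolation 1, far from 0.394, 0.360 and 0.604 CPM in the others (gap over range 0.852). The log2 fold change of *Hey2* between KO and Ctrl cells with ligand was -0.66 in isolation 4 and between 0.00 and 0.09 in the others (0.884). The log2 response of *Jag2* in Ctrl cells was 0.00 in isolation 3 and between 0.25 and 0.26 in the others (0.94).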

How the results depend on the processing

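Direction and call held for *Hes1* in both ligand responses and for *Hey1* in Ctrl cells under all 11 alternatives, and for *Hey2* in KO cells under the 10 that could test it. *Hey2* and *Heyl* could not be tested with at least 10 counts in every library, which left 3 members higher in Ctrl cells. Without the replicate block, that is without the isolation term, which all paired results rest on, the members past the threshold were 2 higher and 0 lower in both genotypes (main values 5 and 1 in Ctrl, 4 and 1 in KO), the other pathway genes 3 higher and 0 lower in Ctrl and 0 and 0 in KO (main values 10 and 4, 7 and 2), and *Hey1* was not past it between ligand-treated groups (0 members lower). Over all genes, 136 rose and 31 fell in Ctrl without the block, against 920 and 601. With quantile normalisation, ComBat and DESeq2, 2 members (*Dll4* and *Nrarp*) were lower with pro:BMP9 than with PBS in KO cells. With that setting, and with no filter, 1 member (*Nrarp*) was higher in KO than in Ctrl cells with PBS and with ligand, and 2 other pathway genes were higher in ligand-treated KO cells. Other pathway genes lower there numbered 1 with quantile normalisation. Between the PBS groups, DESeq2 called 27 genes higher and 37 lower over all genes, against 0 and 3. Leaving out 1 isolation, between 4 and 5 members were higher in Ctrl and between 3 and 4 in KO cells, between 0 and 1 (0 without isolation 1 or 3) lower between ligand-treated groups, and between 0 and 1 other pathway genes higher there.

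Sign changes occurred in log2 values near 0. *Hey1* in PBS (KO against Ctrl) was 0.0018 with RLE, 0.0292 with DESeq2, 0.0153 with only the libraries compared and 0.1333 with quantile normalisation. With ligand, KO against Ctrl, *Heyl* was 0.0632 without the block and 0.0059 with only the libraries compared, and *Hes1* -0.0035 with quantile normalisation. *Notch4* in Ctrl was -0.0035 with quantile normalisation, and the response difference of *Nrarp* 0.0083 without the block. Leaving out 1 isolation spread the value of *Notch4* in Ctrl over -0.0022 to 0.0392, of *Jag1* in KO over -0.0149 to 0.1091, and in PBS of *Hey1* over -0.0958 to 0.1204 and of *Hes1* over -0.066 to 0.0146. With ligand it spread *Hey2* over -0.1551 to 0.0582, *Heyl* over -0.3706 to 0.1373, *Hes1* over -0.0126 to 0.0353 and *Notch1* over -0.0334 to 0.0181. Response differences spread over -0.0085 to 0.0534 for *Hes1*, -0.0762 to 0.0315 for *Nrarp*, -0.0062 to 0.1081 for *Dll4*, -0.0205 to 0.0528 for *Jag2* and -0.0103 to 0.0506 for *Notch4*. The causes were not tested. *Hey2* and *Heyl* had 6 to 15 counts in most PBS libraries, and *Heyl* had 31 and 33 in those of isolation 1.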
